A study of Persea americana and Macadamia integrifolia and Mangifera indica with 6 samples.

Results

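The families miR160, miR167 and miR390 were taken from the miRNA abundance values of avocado, macadamia and mango leaves as every entry whose name carries one of these family numbers, with the 5p and 3p arms kept apart. They comprised 13 of the 123 entries, 6 of the 53 distinct sequences and 3 of the 20 families. Where entries of one family had the same value in each of the 6 libraries, they were taken as 1 sequence. The small RNA libraries came from mature and juvenile leaves of Persea americana (avocado, cv. Hass), Macadamia integrifolia (macadamia, cv. HAES741) and Mangifera indica (mango, cv. Kensington Pride), with 1 library per species and age. Mature leaves were from flowering field trees of 10 years in avocado and macadamia and 5 years in mango. Juvenile leaves were from seedlings of 1 month raised in a nursery or glasshouse. The mature avocado trees were grafted on Velvick rootstock and the mature mango trees were true seedlings, and leaves of several plants were pooled. The seedlings were raised from seed, which in mango came from fruit markets. The paper does not state that both ages of a species shared a genotype. Seedling leaves came from the primary unbranched shoot, and mature leaves from many positions on each tree. Age therefore changed together with growing site, leaf position, plant origin and, in avocado, with grafting, and these cannot be told apart. The values hold miRNAs only, so the leaf label could not be checked against marker transcripts.

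These families act on auxin signalling. In Arabidopsis, miR160 directs the cleavage of transcripts of the repressor-type auxin response factors ARF10, ARF16 and ARF17, and miR167 that of the activator-type factors ARF6 and ARF8. miR390 works indirectly: bound to AGO7, it guides the cutting of TAS3 transcripts, which releases trans-acting siRNAs against ARF2, ARF3 and ARF4. The miR390 to ARF3 and ARF4 route is known in Arabidopsis for its part in the timing of vegetative phase change and in leaf polarity.

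miR167 had 9 entries but only 2 sequences. The miR167a-5p sequence was shared by ath-miR167a-5p, ath-miR167b and osa-miR167b, and the miR167d-5p sequence by 6 rice entries (osa-miR167d-5p, e-5p, f, g, h-5p and i-5p). miR160 was represented by osa-miR160f-5p on the 5p arm and ath-miR160a-3p on the 3p arm, and miR390 by ath-miR390a-5p and ath-miR390a-3p. Other mature sequences of these families, such as miR160a-5p, were not among the 13 entries, so they have no value here. The value of the miR160 family is thus that of osa-miR160f-5p alone, with the 3p sequence described on its own.

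Values are RPM, the reads of a sequence scaled to the 20 to 24 nt reads of its library. Library depth, recovered from the spacing of the values, was between 1141472 reads in juvenile mango and 7509125 reads in mature avocado, so 3 reads stood for 0.4 to 2.63 RPM. The 6 libraries differed in how the listed miRNAs as a whole stood between ages. Together these took 5.6% of the depth in mature and 11.9% in juvenile avocado leaves. In macadamia they took 5.54% in mature and 7.55% in juvenile leaves, and in mango 16.6% in mature and 7.765% in juvenile leaves. The median family had a log2 ratio (mature over juvenile) of -1.39 over 15 families in avocado, -0.53 over 18 in macadamia and -0.05 over 16 in mango. The 3 families took 20.9% of the listed miRNA reads in mature and 9.78% in juvenile avocado leaves, 0.304% in mature and 0.359% in juvenile macadamia leaves, and 11.6% in mature and 7.08% in juvenile mango leaves.

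The order of the 6 libraries by level differed between the families. miR167 was highest in mature mango leaves at 15327 RPM, followed by mature avocado at 11507 RPM, juvenile avocado at 10936 RPM and juvenile mango at 5052 RPM. Macadamia held 105 RPM in mature and 118 RPM in juvenile leaves, and these 2 libraries were the only neighbours in the order whose ratio had a counting interval reaching 1 (mature over juvenile 0.894, 0.757 to 1.05). Among the 20 families miR167 ranked 3 in mature and 4 in juvenile avocado leaves, 3 in both mango libraries, and 13 in mature and 12 in juvenile macadamia leaves.

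The order of miR160 was led by mature mango leaves at 3889 RPM and juvenile mango leaves at 387 RPM. Avocado had 20.8 RPM in mature and 24.8 RPM in juvenile leaves, and macadamia 3.49 RPM in mature and 3.33 RPM in juvenile leaves. Neither pair of ages differed beyond counting error. The macadamia values rested on 6 and 24 reads. miR160 ranked 5 of the 20 families in mature and 10 in juvenile mango leaves, against 14 in both avocado libraries and 19 in both macadamia libraries.

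miR390 had another order, with both avocado libraries on top. It stood at 179 RPM in mature and 635 RPM in juvenile avocado leaves, at 12.8 RPM in mature and 98.4 RPM in juvenile macadamia leaves, and at 15.1 RPM in mature and 58.7 RPM in juvenile mango leaves. Mature mango and mature macadamia, the lowest libraries, were neighbours that did not differ beyond counting error (mango over macadamia 1.18, 0.718 to 1.997). In the other neighbouring pairs of this order the interval lay above 1.

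**Figure D1:**
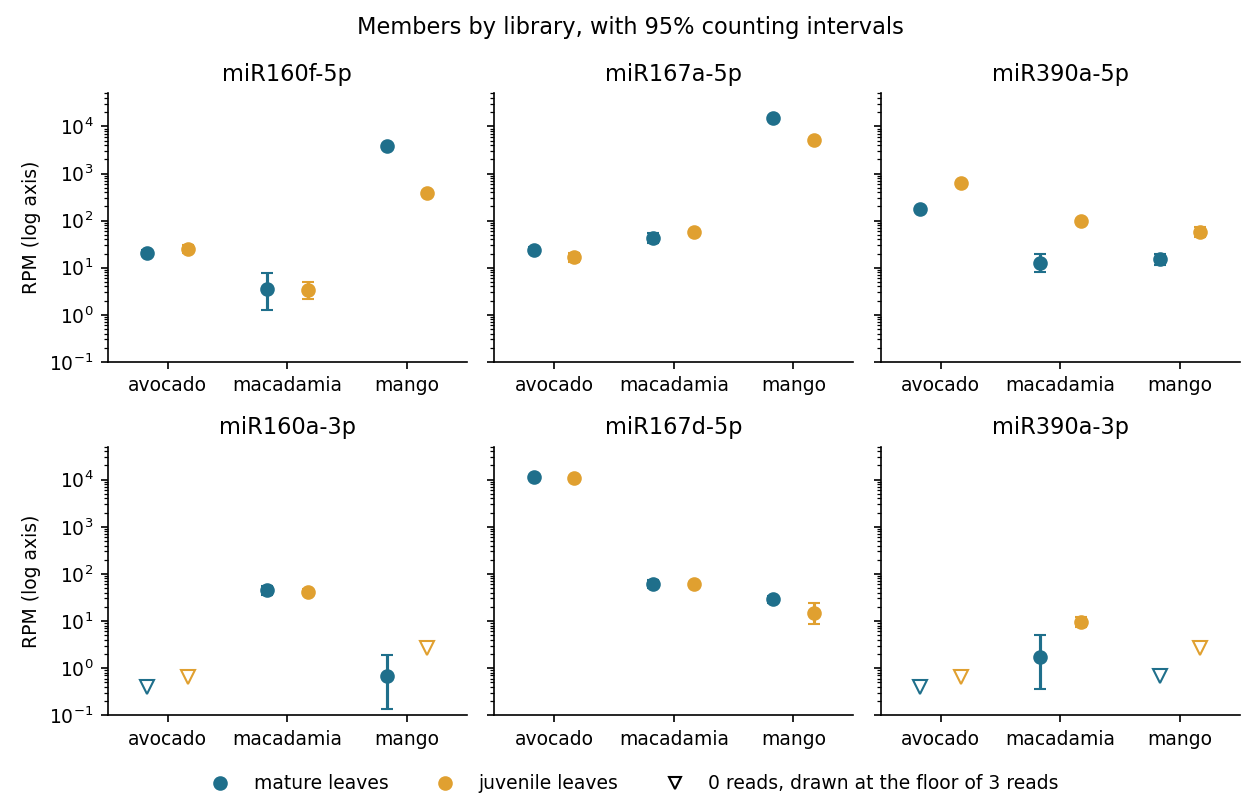
Abundance in RPM on a log axis of the 6 member sequences, 1 panel each, in mature (blue) and juvenile (orange) leaves of the 3 species. Points are single libraries with exact 95% counting intervals, and open triangles mark libraries with 0 reads, drawn at the floor of 3 reads. miR390a-5p is lower in mature than in juvenile leaves of each species, while miR160f-5p and miR167a-5p stand highest in the mango libraries and miR167d-5p in the avocado libraries.

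miR390, the trigger of TAS3 siRNA production, was the only one of the 3 families at least 2-fold apart between ages in each species on the deposited values, lower in mature leaves each time, but after rescaling to the median family it was not 2-fold lower in avocado (log2 ratio -0.43). In avocado the 1341 reads in mature and 2924 reads in juvenile leaves gave a 3.55-fold lower level in mature leaves (95% counting interval 3.33 to 3.795). In macadamia, with 22 reads in mature and 710 reads in juvenile leaves, the level was 7.68-fold lower (5.03 to 12.3). In mango, with 68 reads in mature and 67 reads in juvenile leaves, it was 3.90-fold lower (2.74 to 5.55). The mango value comes from near-equal read numbers in libraries of unequal depth. These intervals cover the counting of reads only, since no species had a replicate library, and no test was possible within a species.

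miR160 differed between ages by more than counting error in mango alone. The 17562 reads in mature and 442 reads in juvenile mango leaves gave a 10.0-fold higher level in mature leaves (9.14 to 11.1). In avocado the ratio of mature over juvenile was 0.839 (0.655 to 1.08), and in macadamia 1.05 (0.351 to 2.64). A 2-fold difference in either direction lies inside the macadamia interval and was not detectable at this depth.

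Each of the miR167 sequences had its own set of ratios. miR167a-5p had 24.2 RPM in mature and 16.5 RPM in juvenile avocado leaves, 43.1 RPM in mature and 56.3 RPM in juvenile macadamia leaves, and 15299 RPM in mature and 5037 RPM in juvenile mango leaves. The ratio of mature over juvenile was thus 1.47 (1.12 to 1.95) in avocado, 0.766 (0.589 to 0.983) in macadamia and 3.04 (2.96 to 3.12) in mango. The macadamia value was on the other side of 1 from the other two.

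miR167d-5p had 11483 RPM in mature and 10920 RPM in juvenile avocado leaves, 62.3 RPM in mature and 61.7 RPM in juvenile macadamia leaves, and 28.8 RPM in mature and 14.9 RPM in juvenile mango leaves. Its ratio was 1.05 (1.04 to 1.06) in avocado, 1.01 (0.810 to 1.25) in macadamia and 1.93 (1.16 to 3.42) in mango. Both sequences were therefore higher in mature mango leaves on the deposited values, and the mango ratio of miR167d-5p rested on 130 reads in mature and 17 reads in juvenile leaves. The listed miRNAs together also took more of the depth in mature (16.6%) than in juvenile mango leaves (7.765%). Mango ratios against that total were not computed.

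A sequence was counted as changed in a species where mature or juvenile leaves held at least 10 RPM and it was at least 2-fold apart on log2(RPM + 1). Of the 6 member sequences 4 passed in each species: miR167a-5p, miR167d-5p and miR390a-5p everywhere, with miR160f-5p in avocado and mango and miR160a-3p in macadamia. In avocado 1 was lower in mature leaves (miR390a-5p) and 0 were higher, where 50% of the 34 sequences tested were lower and 14.7% higher. In macadamia the same 1 was lower and 0 were higher, against 32.4% of 34 sequences lower and 5.88% higher. In mango miR390a-5p was lower and miR160f-5p and miR167a-5p were higher, against 31.0% of 29 sequences lower and 37.9% higher.

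Because avocado miRNAs as a whole were lower in mature leaves, the avocado counts moved when each species was rescaled to a median log2 ratio of 0. The rescaled avocado log2 ratio was 1.92 for miR167a-5p, 1.47 for miR167d-5p and 1.15 for miR160f-5p, so that 3 members counted as higher and 0 as lower. The avocado log2 ratio of miR390a-5p was -1.82 as deposited and -0.43 after rescaling, so it was no longer 2-fold lower there. In macadamia and mango its log2 ratio was -2.85 and -1.89 as deposited and -2.32 and -1.84 after rescaling. The counts in those species did not move.

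**Figure D2:**
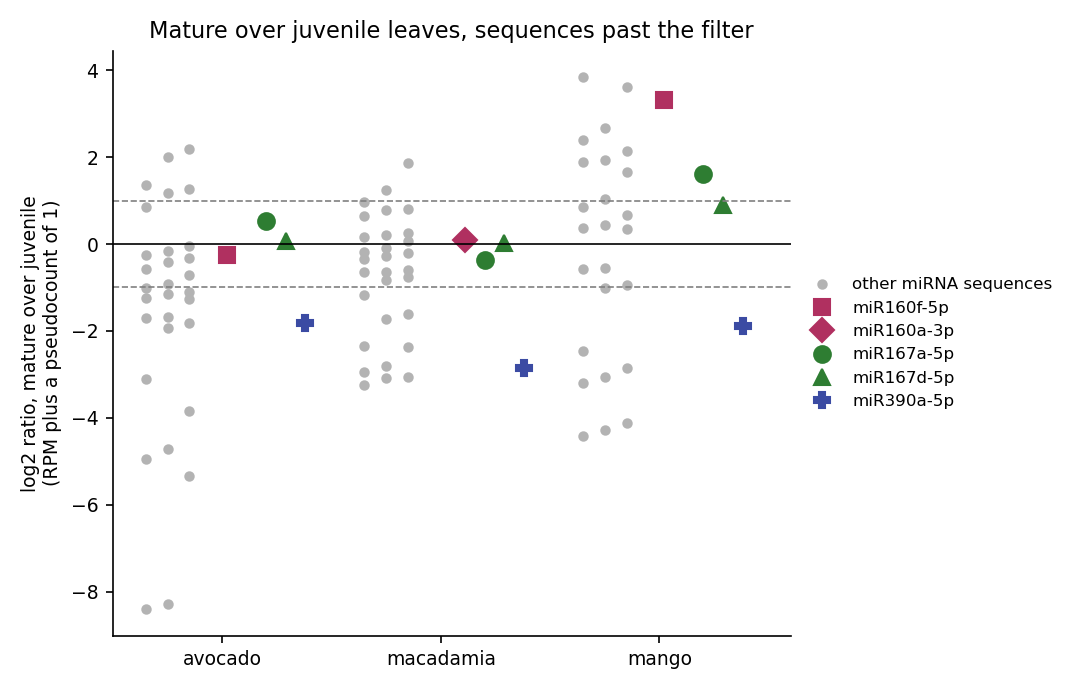
Log2 ratio (mature over juvenile, on RPM plus a pseudocount of 1) of every distinct sequence that reached 10 RPM in the mature or juvenile library of the species. Coloured symbols are members, grey points the other miRNA sequences, and dashed lines mark 2-fold. miR390a-5p lies below the lower dashed line in each species on these deposited values, in avocado not after rescaling, and miR160f-5p and miR167a-5p lie above the upper line in mango only.

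The age effect shared by the species was tested with limma on log2(RPM + 1) with a block for species, over the features that reached 10 RPM in each species at either age. Of 13 families tested, 15.4% (2 families) were called, both lower in mature leaves and neither of them a member. miR390 was lower in 3 of 3 species, as were miR156, miR157, miR164, miR394 and miR396 among the 13 families. It had a log2 fold change of -2.19 (SE 0.91, 95% interval -4.05 to -0.33) and missed the threshold of 0.05 (limma adjusted p = 0.0994). With a filter of 50 RPM the same fold change was called (limma adjusted p = 0.0322), and over its 11 alternatives the adjusted p ran from 0.0322 to 0.705. After rescaling its log2 fold change was -1.53 (limma adjusted p = 0.372). miR167 had a log2 fold change of 0.50 (SE 0.91, limma adjusted p = 0.729), which was -0.044 without mango and 1.16 after rescaling (limma adjusted p = 0.586).

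At the level of sequences 13.0% of the 23 tested (3 sequences) were called, all lower in mature leaves and none a member. miR390a-5p had a log2 fold change of -2.19 (limma adjusted p = 0.0892), miR167a-5p of 0.58 (limma adjusted p = 0.825) and miR167d-5p of 0.33 (limma adjusted p = 0.841). miR160f-5p did not enter, because it stayed under 10 RPM in both macadamia libraries. With no filter the miR160 family had a log2 fold change of 1.05 (SE 1.11, limma adjusted p = 0.703). The p-values rest on 3 species with a single library at each age, so the species serve as the replicates. Their spread was pooled over all features of a fit, so an SE is not that of the single family or sequence.

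Ratios between members inside a library do not depend on how the library was scaled. The ratio of miR160f-5p to miR390a-5p reads was 0.116 in mature and 0.0390 in juvenile avocado leaves, 0.273 in mature and 0.0338 in juvenile macadamia leaves, and 258 in mature and 6.60 in juvenile mango leaves. It was therefore higher in the mature library of each species, by 2.98-fold in avocado (2.32 to 3.83), 8.07-fold in macadamia (3.00 to 21.7) and 39.2-fold in mango (27.6 to 55.6). Intervals of such changes between ages are normal approximations, and the macadamia one rests on 6 and 22 reads in mature leaves. miR390a-5p reads outnumbered miR160f-5p reads in both avocado and both macadamia libraries, and the reverse held in both mango libraries. The mean log2 change was 3.29 ± 1.87 (SD, n = 3 species, exact two-sided sign-flip permutation p = 0.25, adjusted p = 0.5 over 4 pairs), where 0.25 is the smallest p that 3 species allow.

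The ratio of miR167 to miR390a-5p moved the same way. It was 64.4 in mature and 17.2 in juvenile avocado leaves, 8.23 in mature and 1.20 in juvenile macadamia leaves, and 1018 in mature and 86.1 in juvenile mango leaves. The change was 3.74-fold in avocado (3.50 to 3.99), 6.86-fold in macadamia (4.36 to 10.8) and 11.8-fold in mango (8.43 to 16.6), with a mean log2 change of 2.75 ± 0.83 (SD, n = 3 species, exact permutation p = 0.25, adjusted p = 0.5). Both ratios share the miR390a-5p reads of the same libraries.

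The direct ARF regulators did not keep a fixed ratio to each other. The ratio of miR167 to miR160f-5p reads was 554 in mature and 442 in juvenile avocado leaves, 30.2 in mature and 35.5 in juvenile macadamia leaves, and 3.94 in mature and 13.0 in juvenile mango leaves. Between ages it differed beyond counting error in mango only, at 0.302 times the juvenile ratio (0.274 to 0.333), against 1.25 times (0.984 to 1.60) in avocado and 0.851 times (0.343 to 2.11) in macadamia. Its mean log2 change was -0.54 ± 1.06 (SD, n = 3 species, exact permutation p = 0.75, adjusted p = 0.75).

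**Figure D3:**
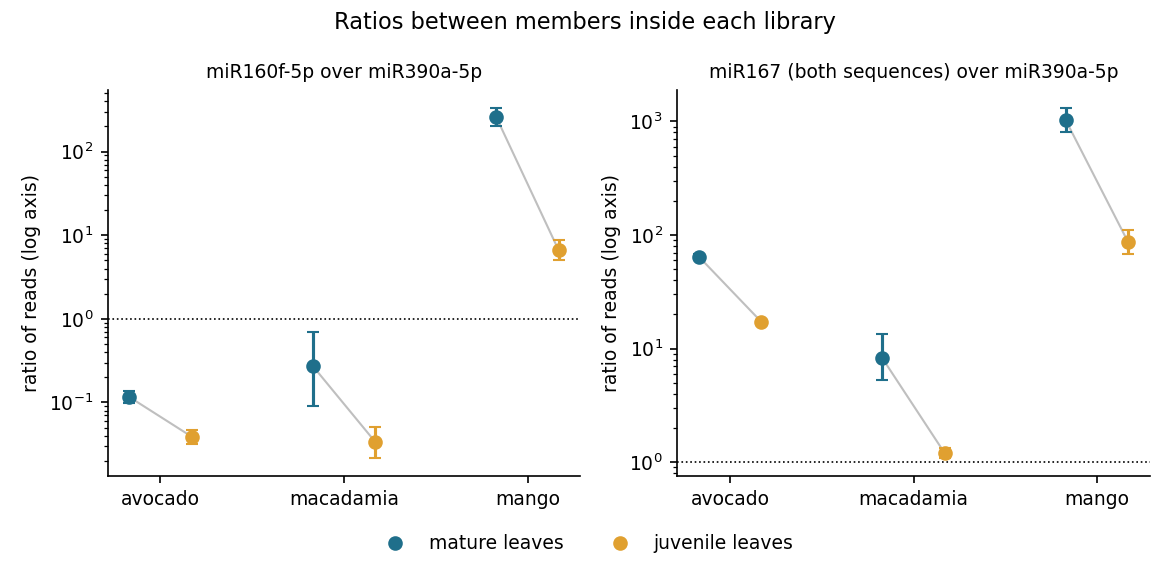
Ratios of reads between members inside each library on log axes, miR160f-5p over miR390a-5p on the left and miR167 (both sequences) over miR390a-5p on the right, in mature (blue) and juvenile (orange) leaves with exact 95% counting intervals. Grey lines join the libraries of a species, and the dotted line marks equal reads. Each line falls to the right, so the mature library has the higher ratio in each of the 3 species.

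The shares of the miR167 sequences differed between the species. miR167d-5p made up 99.8% of miR167 reads in mature and 99.9% in juvenile avocado leaves. In mango its share was 0.188% (0.157 to 0.223, exact 95% binomial interval) in mature and 0.295% (0.172 to 0.472) in juvenile leaves, with miR167a-5p making up the rest. Macadamia held both, and in its juvenile leaves neither led beyond counting error, with miR167d-5p at 59.1% (51.6 to 66.4) in mature and 52.3% (48.9 to 55.7) in juvenile leaves. Between ages the ratio of miR167a-5p to miR167d-5p changed by 1.40-fold in avocado (1.07 to 1.83), 0.758-fold in macadamia (0.548 to 1.05) and 1.57-fold in mango (0.947 to 2.61). Only the avocado interval left out 1 (mean log2 change 0.24 ± 0.56, SD, n = 3 species, exact permutation p = 0.5, adjusted p = 0.667).

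**Figure D4:**
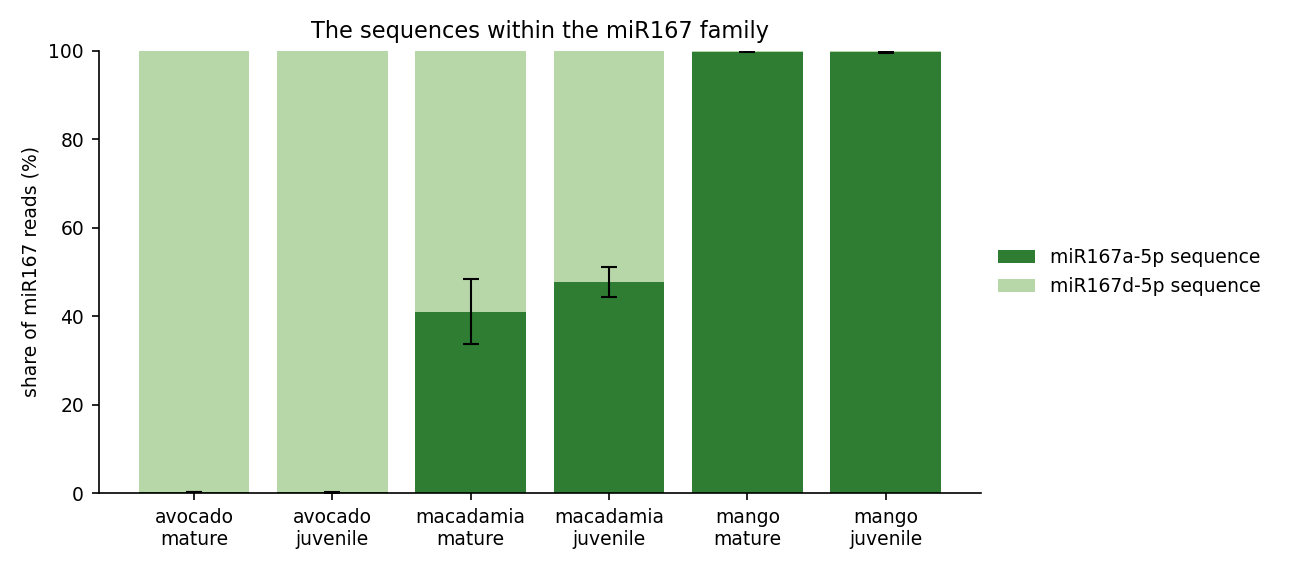
Share in percent of the reads of the miR167 family taken by the miR167a-5p and the miR167d-5p sequence in each library, with the exact 95% interval of the miR167a-5p share. Avocado libraries hold almost only miR167d-5p, mango libraries almost only miR167a-5p, and the macadamia libraries both, at 40.9% miR167a-5p in mature and 47.7% in juvenile leaves.

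These species differences were tested with limma over the 35 sequences with a mean of at least 10 RPM, with age as a block and the 2 ages serving as the replicates of a species. The 3 contrasts share libraries, and they were added after the values had been seen. Between mango and avocado, where 11.4% of sequences were called higher in mango and 34.3% lower, miR167a-5p was higher in mango by 8.71 on the log2 scale (SE 1.08, limma adjusted p = 2.17e-05) and miR167d-5p had a log2 fold change of -9.01 (SE 1.05, limma adjusted p = 2.17e-05). miR160f-5p was higher in mango by 5.70 (SE 1.17, limma adjusted p = 0.00126). These 3 differences kept their direction in all 11 alternatives run, and the call in each that left in both libraries of mango and of avocado. With the filter of 50 RPM each of the 3 sequences passed only through the species where it is highest, so that setting adds no separate support.

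Between mango and macadamia, where 5.71% of sequences were called higher in mango and 14.3% lower, miR160f-5p was higher in mango by 8.12 (SE 1.17, limma adjusted p = 8.47e-05) and miR167a-5p by 7.45 (SE 1.08, limma adjusted p = 8.47e-05). miR160f-5p and miR167a-5p made up both of the sequences called higher in mango, and they are members of different families. In macadamia miR160f-5p stayed under 10 RPM, with 6 reads (3.49 RPM) in mature and 24 reads (3.33 RPM) in juvenile leaves. Of these 2 species it thus reached 10 RPM in mango only. The size of its difference therefore depends on the pseudocount, while its direction and call were kept at 0.1 and 5 RPM. Without the mature macadamia library the miR167a-5p difference was 6.73 and missed the threshold (limma adjusted p = 0.0647, range over 11 alternatives 7.91e-08 to 0.0647). miR167d-5p had a log2 fold change of -1.53 between mango and macadamia (95% interval -3.79 to 0.72, limma adjusted p = 0.35).

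Between macadamia and avocado 11.4% of sequences were called higher in macadamia and 20% lower. miR167d-5p had a log2 fold change of -7.47 (SE 1.05, limma adjusted p = 9.48e-05). The call held in each alternative that left in both libraries of macadamia and of avocado. With the filter of 50 RPM this sequence passed only through avocado, so that setting adds no separate support. miR167a-5p, at 1.26 (95% interval -1.05 to 3.57, limma adjusted p = 0.46), and miR160f-5p, at -2.43 (95% interval -4.94 to 0.09, limma adjusted p = 0.16), were not called.

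miR390a-5p was lower in both other species than in avocado, with a log2 fold change of -3.45 in mango (SE 1.06, limma adjusted p = 0.0141) and -3.19 in macadamia (SE 1.06, limma adjusted p = 0.032). Both calls depended on the setting: the adjusted p ran from 0.0144 to 0.123 for mango and from 0.0268 to 0.777 for macadamia. Each was lost on leaving out any of several libraries, with adjusted p of 0.123 for mango without either macadamia library, 0.0604 without mature mango and 0.0729 without juvenile mango. For macadamia it was 0.0992 without mature avocado, 0.777 without mature macadamia, 0.399 without juvenile macadamia and 0.0582 without either mango library. With every library kept, a pseudocount of 0.1 RPM also lost both calls (limma adjusted p = 0.0758 for mango and 0.15 for macadamia). For macadamia the call was also lost with the filter of 50 RPM (limma adjusted p = 0.103). Scaling to all listed miRNA reads lost it as well (limma adjusted p = 0.074). Mango and macadamia had a difference of -0.26 (95% interval -2.52 to 2.0, limma adjusted p = 0.876).

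The 3p arms were read mainly in macadamia. miR160a-3p, from the arm opposite the usual guide strand, had 77 reads (44.8 RPM) in mature and 303 reads (42.0 RPM) in juvenile macadamia leaves. It had 3 reads (0.664 RPM) in mature and 0 reads in juvenile mango leaves, and 0 reads in both avocado libraries. The macadamia level was 112-fold the floor of 3 reads of avocado in mature leaves and 64.5-fold that floor in juvenile leaves. Against the floor of mango it was 16.0-fold in juvenile leaves. These folds leave out the counting error of the macadamia reads and are not lower limits.

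Within macadamia, miR160a-3p outnumbered miR160f-5p by 12.8-fold in mature leaves (5.63 to 36.1) and 12.6-fold in juvenile leaves (8.33 to 20.0). In mature mango leaves the 3p reads made up 0.0171% of miR160 reads (0.00352 to 0.0499). In avocado the exact interval of the count of 0 reached 2.34% of 156 reads in mature and 3.18% of 114 reads in juvenile leaves. Among the sequences listed, the 3p arm led in macadamia and the 5p arm in avocado and mango. Between ages the macadamia level of miR160a-3p had a ratio of 1.07 (0.820 to 1.38). No species contrast is given for miR160a-3p, because this sequence passed the filter only through the macadamia libraries.

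miR390a-3p was read only in macadamia, with 3 reads (1.75 RPM) in mature and 70 reads (9.70 RPM) in juvenile leaves. It had 0 reads in both libraries of avocado and mango. The exact intervals of these counts reached 0.491 RPM in mature and 0.801 RPM in juvenile avocado leaves. In mango they reached 0.817 RPM in mature and 3.23 RPM in juvenile leaves. The level of miR390a-3p in mature macadamia leaves was 5.55-fold lower than in juvenile ones (1.82 to 27.6), the same direction as miR390a-5p. It made up 12.0% of miR390 reads in mature (2.55 to 31.2) and 8.97% in juvenile macadamia leaves (7.06 to 11.2), and it stayed under the filter of 10 RPM.

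Of the other families of auxin signalling, miR393, which targets the TIR1 and AFB auxin receptors, and miR164, which targets NAC1 and related transcription factors, had values. miR847 was not among the 123 entries. miR164 had 1312 RPM in mature and 4183 RPM in juvenile avocado leaves, 1927 RPM in mature and 3010 RPM in juvenile macadamia leaves, and 224 RPM in mature and 456 RPM in juvenile mango leaves. On the deposited values its log2 ratio was -1.67 in avocado, -0.64 for macadamia leaves and -1.02 for those of mango. After rescaling to the median family these ratios were -0.28, -0.11 and -0.97 in the same order of species, none of them 2-fold. miR393 had 67.3 RPM in mature and 15.8 RPM in juvenile avocado leaves, 25.0 RPM in mature and 41.7 RPM in juvenile macadamia leaves, and 5.76 RPM in mature and 74.5 RPM in juvenile mango leaves. It was 4.24-fold higher in mature avocado leaves (3.31 to 5.50) and 12.9-fold lower in mature mango leaves, with log2 ratios of 3.41 and -3.43 after rescaling.

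The families whose ratios lay nearest to those of a member were found as the smallest Euclidean distance between the 3 log2 ratios of mature over juvenile leaves, 1 per species. For miR167 the nearest of 12 families were miR159, at a distance of 0.85, miR166 at 1.92 and miR172 at 2.22. For miR390 they were miR394 at 1.95, miR164 at 2.38 and miR396 at 2.67. For miR160, compared with 13 families although it did not pass the filter itself, they were miR159 at 1.51, miR167 at 1.77 and miR166 at 2.49. miR159 and miR166 thus stood among the nearest families of both miR160 and miR167. Each distance rests on 3 ratios and is a description.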

How the data were processed

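Small RNA from 1 library of mature and 1 of juvenile leaves of each species was sequenced. According to the study's methods, adapters were removed with Trim Galore, ribosomal reads with BBduk, and reads were counted with SCRAM against mature Arabidopsis and rice miRNAs. For none of these tools is a version given in the sources used here. The table deposited by the authors gives RPM, normalized to the 20 to 24 nt reads, with 3 decimals. Sequences of a species that differ from these references may have gone uncounted, which was not tested.

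The depth used is the lowest read total that makes every RPM value of a library a whole number of reads within rounding (100% of values). A whole multiple of it would fit as well, and would narrow the intervals. Counting intervals are exact (Clopper-Pearson, 95%), except those of the change between ages of a ratio inside a library. Those are 95% normal approximations on the log scale, which are rough at low reads. All assume independent reads and cover counting error only. Families were summed over their more abundant arm. Log2 ratios use RPM plus 1, which understates changes of low sequences. limma 3.58.1 in R 4.3.3 was fitted over all families or sequences past the filter, with Benjamini-Hochberg adjustment at 0.05. The fitting was checked on simulated data with more features and with age changes larger than those called here. That check does not give the power or error rate of the fits on these values. The limma p-values rest on the spread between species, or between ages in the species contrasts, since replicate libraries are lacking. In the main shared age fits limma pooled this spread fully over all features. Each family thus had the same SE of 0.91 and each sequence one of 0.89, whatever its own spread. In the species contrasts the spread was pooled in part, with 11.96 prior against 2 residual degrees of freedom. Python 3.11.15 and scipy 1.17.1 gave the remaining values. Named beside the members are the 3 nearest families of each and the measured auxin families miR393 and miR164. Members and lists were chosen with earlier results of these data known. Alternatives were rescaling, pseudocounts of 0.1 and 5 RPM, no filter or 50 RPM, both arms, the most abundant sequence alone, no species block, thresholds of 1.5-fold and 4-fold, and leaving out each species. The species contrasts and their alternatives, scaling to all listed miRNA reads and leaving out each library, and leaving out each species from the mean ratios, were added after seeing the data.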

Additional observations from a re-analysis of the deposited data

Results flagged for a closer look

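The miR167a-5p sequence had ratios of mature over juvenile leaves on opposite sides of 1 in different species, with counting intervals that left out 1 on both sides. Its log2 ratio was 1.60 in mango and -0.38 in macadamia, a difference of 1.98, and it was 0.53 in avocado, a difference from macadamia of 0.91. With 1 library per species and age the difference between species was not tested. When the median family of each species was set to 0, the values were 1.65 in mango, 0.15 in macadamia and 1.92 in avocado, without opposite signs. The macadamia value rested on 74 reads in mature and 406 reads in juvenile leaves.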

How the results depend on the processing

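The log2 ratios within a species were recomputed under each scaling, pseudocount and summing of entries, and none of those at least 2-fold changed sign, while 16 recomputed ratios left their counting interval. Of the shared effects, miR167 had a log2 fold change of 0.50, which ran from -0.044 without mango to 0.84 without macadamia on leaving out a species and was 1.16 after rescaling, and miR390 was called only with a filter of 50 RPM (-2.19, limma adjusted p = 0.0322), with -1.53 after rescaling (limma adjusted p = 0.372). The number of families called was 2, and 1 after rescaling, with no filter and with no species block. On leaving out a species limma called 0 families, with 5 at an unadjusted p under 0.05 without avocado, 1 without macadamia and 2 without mango. The number of sequences called was 3, with 0 under no filter (6 at an unadjusted p under 0.05) and 5 with a filter of 50 RPM, and from 0 without macadamia (2 at an unadjusted p under 0.05) to 4 without mango. After rescaling, avocado had 2 families and 3 sequences higher in mature leaves and 0 lower. At 4-fold, avocado and mango had 0 members lower and mango 1 higher, and with no filter macadamia had 2 sequences lower, miR390a-5p and miR390a-3p.

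In the species contrasts, sequences called between mango and avocado numbered 16, and 8 to 16 on leaving out a library. Between macadamia and avocado they numbered 11, with 7 at a pseudocount of 5 RPM, 5 with a filter of 50 RPM, 7 when scaled to all listed miRNA reads and 4 to 12 on leaving out a library. Between mango and macadamia they numbered 7, and 2 to 9 on leaving out a library. Of 88 alternatives to the 8 member contrasts called, 74 kept the call and 14 lost it, with none reversed. Among these, the filter of 50 RPM adds no separate support for miR160f-5p, miR167a-5p and miR167d-5p. The miR390a-5p difference between mango and macadamia, not called, ran from -0.75 without mature macadamia to 0.24 without juvenile macadamia. The shared age fit paired the libraries by species, and a further block on replicate number could not be made, because each group holds 1 library. A model of counts on recovered reads was not run, because too few low values were listed to check the recovery. miR160 has no shared effect past the filter, and its values were 1.05 with no filter, 1.06 with both arms and 1.54 without macadamia (limma adjusted p of 0.703, 0.45 and 0.705).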

Other observations

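The lower of the miR167 sequences in a species had few reads beside the library where it was most abundant. miR167a-5p had 182 reads in mature and 76 reads in juvenile avocado leaves, 0.263% and 0.110% of its 69091 reads in mature mango leaves. miR167d-5p had 130 reads in mature and 17 reads in juvenile mango leaves, 0.151% and 0.0197% of its 86226 reads in mature avocado leaves. In macadamia both sequences stood at 0.107% to 0.588% of those libraries. miR160f-5p had 0.0342% to 0.888% of its 17562 mature mango reads in the avocado and macadamia libraries. Whether any of these reads were carried over between libraries was not tested.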
